A study of Arabidopsis thaliana with 12 samples.

Results

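The WRKY proteins are a large family of plant transcription factors, and 46 of their genes were followed here across 12 arrays of Arabidopsis thaliana seedlings. Members were taken by locus, as the array probes whose systematic name is in a list of 46 WRKY loci. TTG2 (WRKY44), a trichome and seed coat regulator, was left out. The list need not hold every WRKY gene, so the family and subfamily counts describe its members alone. They make up 46 of the 25665 loci named on the array, each read by a single probe, and 45 of them gave a signal that could be tested. Chromosomes 1 to 5 carry 6, 12, 4, 12 and 12 of them.

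The arrays fall into 3 groups of 4, all of accession Columbia-0, from whole 3-week seedlings grown on agar with sucrose: 35S:MYB106SRDX, 35S:WIN1SRDX and wild type. MYB106 is a MYB factor of epidermal cells and WIN1 is an AP2/ERF factor of cuticle formation. In each transgene the constitutive 35S promoter drives the factor fused to SRDX, a short repression domain that turns an activator into a repressor in most tissues, not only in the epidermis. The sources used here do not give how many independent lines each transgene group holds. The labels describe several seedlings taken from a plate of many for each RNA sample. Separate cultures are not named, and the p-values therefore cover the variation among these samples alone, part of which may be technical.

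A WRKY factor binds W box elements in promoters through the WRKY domain, a short stretch joined to a zinc finger. Group I members carry a pair of such domains, while groups II and III carry a single domain and differ in the type of zinc finger, with group II divided into IIa to IIe. The family is best known from immunity, where pattern receptors at the cell surface activate mitogen-activated protein kinase cascades and calcium-dependent kinases that phosphorylate WRKY factors, and from salicylic acid signalling, leaf senescence, phosphate supply and abscisic acid responses. Several members are repressors, many act redundantly, and VQ-motif proteins bind some of them as cofactors.

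Levels are log2 signals with the 75th percentile of each array set to 0. A level is not comparable between genes, and a fold change is a difference of group means with its standard error (SE) from a limma fit over 20267 tested genes. A gene passed when its Benjamini-Hochberg adjusted p over all of these genes was below 0.05, and "rose" or "fell" is used for those alone. Between 59.3% and 64.2% of spots lay well above background on an array and none was saturated. Arrays correlated at 0.938 to 0.973 within MYB106SRDX, 0.926 to 0.972 within WIN1SRDX and 0.989 to 0.994 within wild type. WRKY genes had a median SD of 0.45 on the MYB106SRDX arrays, of 0.46 on those of WIN1SRDX and of 0.19 on those of wild type, against 0.31, 0.28 and 0.14 for all genes of the same groups. WIN1SRDX replicate 2 stood apart in the scanner's own marks: 181 of its spots were marked as outliers and left out, the WRKY40 and WRKY45 spots among them.

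**Figure D1:**
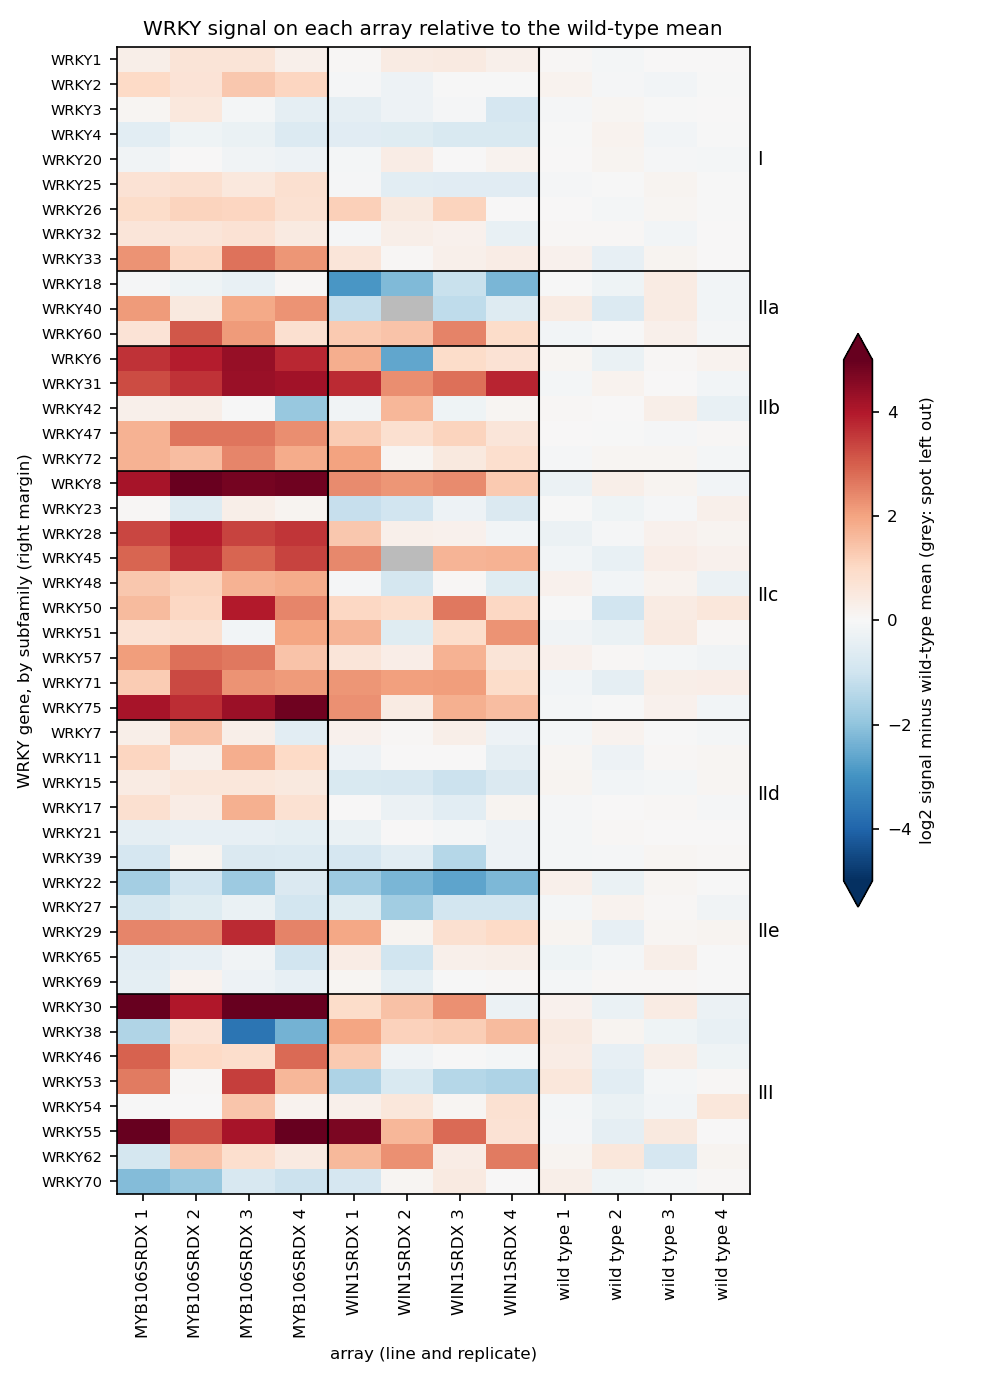
Log2 signal of the 46 WRKY genes on each of the 12 arrays minus the wild-type mean of the gene, with genes down the page by subfamily and arrays across it. Red is above and blue below the wild-type mean, colours stop at 5 on either side, and grey marks the 2 spots left out. The columns of the MYB106SRDX arrays are mostly red in groups I, IIb and IIc, those of WIN1SRDX hold both colours, and WRKY22 and WRKY27 are blue on all 8 arrays of both lines.

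In MYB106SRDX seedlings most WRKY genes stood above wild type. WRKY30, an oxidative stress gene of group III, was 83.4-fold higher (144-fold without MYB106SRDX replicate 2), WRKY8, a pathogen and salt response gene, 25.4-fold, and WRKY75, known from phosphate starvation and senescence, 18.8-fold. WRKY33, a regulator of camalexin synthesis, was 4.18-fold higher. Among the few that fell were WRKY70, a salicylic acid response gene, 2.81-fold, and WRKY22, a target of the flagellin-activated kinase cascade, 2.47-fold.

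Of the 45 tested members, 28 rose, 5 fell and 12 did not pass in MYB106SRDX against wild type. Over all tested genes 23.6% rose, 28.6% fell and 52.2% did either in that comparison. At least 2-fold changes were 22 rises and 2 falls, against 10.1% and 18.3% of all genes. The median log2 fold change of the members was 0.96, beside -0.05 over all tested genes. Arrays of the groups did not overlap for 27 members with higher values and 5 with lower values, which 24.3% and 28.3% of all genes did. The 12 arrays lay on 3 slides that each held all groups, and within the slides the median of the members was 0.91, 0.88 and 0.89. With the slide as a block it was 0.99, and all 33 members that passed had the same sign within every slide. Without MYB106SRDX replicate 2 there were 28 rises and 8 falls, with WRKY38, WRKY39 and WRKY69 as the added falls.

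In WIN1SRDX seedlings WRKY genes lay on both sides of wild type. WRKY31 was 8.87-fold higher than wild type, WRKY55 5.58-fold and WRKY8 4.18-fold. WRKY22 was 4.76-fold lower and WRKY18, a repressor of basal defence, 4.39-fold lower. These values share their 4 wild-type arrays with those of the other line.

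In WIN1SRDX against wild type 9 members rose, 8 fell and 28 did not pass, where 17.4% of all tested genes rose, 15.2% fell and 32.6% did either. These counts of rises and falls are near the shares of all genes. At least 2-fold changes were 7 rises and 3 falls, against 7.41% and 7.23% of all genes. The median log2 fold change was 0.21 beside 0.00140 over all genes. Arrays did not overlap for 14 members with higher and 10 with lower values, as for 22% and 21% of all genes. Within the 3 slides the median of the members was 0.18, 0.025 and 0.17, and the 17 that passed had the same sign in every slide with a value. With the slide as a block 13 of the 17 still passed, and WRKY60, WRKY26, WRKY25 and WRKY39 did not. Without WIN1SRDX replicate 2 there were 12 rises, WRKY6, WRKY29, WRKY51 and WRKY72 among them, and 5 falls. There were 5 falls as well without wild-type replicate 1, 3 or 4.

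Set directly against WIN1SRDX, MYB106SRDX seedlings had the higher signal of most members. WRKY30 differed 39.1-fold, WRKY6, a phosphate and senescence regulator, 13-fold, WRKY53, a senescence regulator, 9.64-fold and WRKY28, an activator of salicylic acid synthesis, 8.76-fold. Without WIN1SRDX replicate 2 the WRKY6 difference was 6.81-fold (limma adjusted p = 6.15e-05). WRKY38 and WRKY70 were lower in MYB106SRDX. In this comparison 24 members were higher in MYB106SRDX, 3 were lower and 18 did not pass, where 18.3% of all genes were higher, 24.2% lower and 42.6% either. At least 2-fold differences were 21 and 2, against 8.26% and 15.7% of all genes. Arrays did not overlap for 19 members with higher and 2 with lower values in MYB106SRDX, as for 15% and 19.7% of all genes. The median of the members was 0.95 beside -0.03 over all genes, and 0.53, 1.19 and 0.93 within the slides. Of the 27 that passed, 26 kept their sign in every slide, the exception being WRKY72 with -0.27 on the first. The fit shares its estimate of spread with the wild-type arrays, which were the tightest. With only the compared groups fitted, 21 members were higher and 2 lower, and WRKY21, WRKY23, WRKY46 and WRKY72 no longer passed. Over all genes 2563 were then higher and 3737 lower, against 3717 and 4908.

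**Figure D2:**
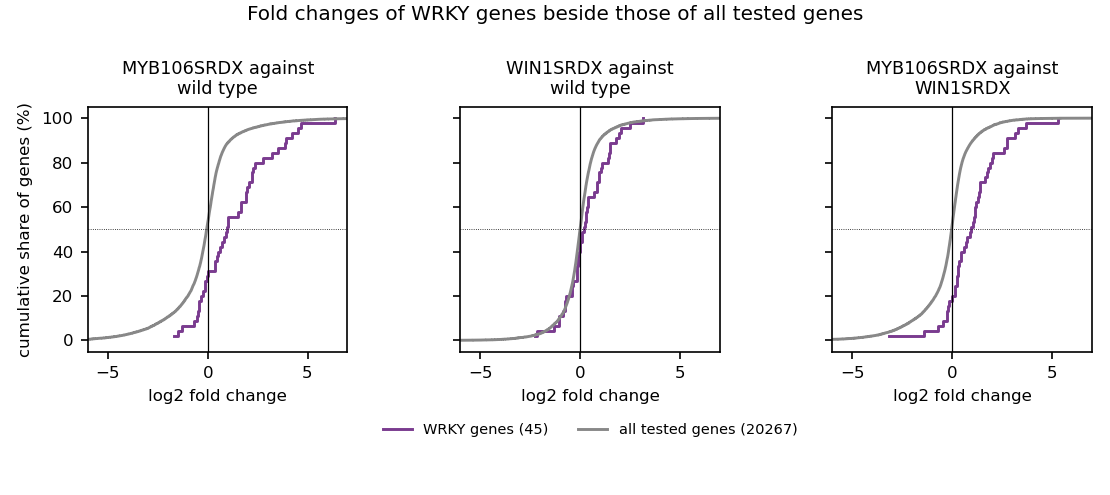
Cumulative share of genes in percent against log2 fold change, for the 45 tested WRKY genes (purple) and all 20267 tested genes (grey), in MYB106SRDX against wild type, WIN1SRDX against wild type and MYB106SRDX against WIN1SRDX. The axis runs from -6 to 7. The purple line crosses 50% at the medians of 0.96, 0.21 and 0.95.

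Group III holds salicylic acid and senescence regulators, and 4 of its 7 tested members rose in MYB106SRDX (23.6% of all genes did) while 1 fell and 2 did not pass. The signal of WRKY30 (AT5G24110) was 2.07, -0.94, 3.3 and 1.27 in MYB106SRDX and -4.03, -3.49, -2.69 and -5.27 in WIN1SRDX, against -4.75, -5.29, -4.55 and -5.24 in wild type. Every MYB106SRDX array lay above all others, though replicate 2 was lowest by over 2 units on the log2 scale, and WIN1SRDX overlapped wild type. WRKY30 rose by 6.38 ± 0.79 (SE, n = 4 arrays a group, limma adjusted p = 8.96e-05) in MYB106SRDX and differed by 1.09 ± 0.79 (SE) in WIN1SRDX (limma adjusted p = 0.314). It was the largest rise among the members in the first comparison. The rise was 7.17 without MYB106SRDX replicate 2, 5.76 without replicate 3 and 5.39 with normexp background correction, and the difference between the lines, 5.29, was 6.08, 4.67 and 4.66 under the same settings, all past the threshold.

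WRKY55 (AT2G40740), a positive regulator of senescence and salicylic acid accumulation, read -1.38, -3.39, -2.49 and -1.07 in MYB106SRDX and -1.93, -4.96, -3.79 and -5.91 in WIN1SRDX, against -6.68, -7.09, -6.14 and -6.59 in wild type. Both lines were above wild type on every array and overlapped each other. The gene rose by 4.54 ± 0.77 (SE) in MYB106SRDX (limma adjusted p = 0.000662) and by 2.48 ± 0.77 (SE) in WIN1SRDX (limma adjusted p = 0.0303). The call in WIN1SRDX was lost without WIN1SRDX replicate 1 or 3, without wild-type replicate 1, 2 or 4 and with normexp background correction, where its change was 1.31 (2.85 in MYB106SRDX), with adjusted p at most 0.0749. The change in WIN1SRDX was 1.74 without its replicate 1 and 3.07 without its replicate 4. WRKY54 is the neighbour of WRKY55 on chromosome 2. WRKY54 (AT2G40750) read -4.77, -4.72, -3.36 and -4.57 in MYB106SRDX and -4.49, -4.18, -4.65 and -3.99 in WIN1SRDX, against -4.82, -5.07, -4.87 and -4.19 in wild type, and the groups overlapped. It had 0.38 ± 0.31 (SE) in MYB106SRDX (limma adjusted p = 0.326) and 0.41 ± 0.31 (SE) in WIN1SRDX (limma adjusted p = 0.338). WRKY54 passed as higher in MYB106SRDX with normexp background correction and with quantile normalization.

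WRKY54 and WRKY70 are known as partners in salicylic acid signalling that hold back senescence. WRKY70 (AT3G56400) read -1.58, -1.31, -0.22 and -0.48 in MYB106SRDX and -0.24, 0.7, 1.03 and 0.6 in WIN1SRDX, against 0.87, 0.36, 0.49 and 0.64 in wild type. All MYB106SRDX arrays were below all wild-type arrays, and replicate 1 of WIN1SRDX reached into their range. WRKY70 fell by 1.49 on the log2 scale in MYB106SRDX (SE 0.33, limma adjusted p = 0.00346) and differed by -0.069 ± 0.33 (SE) in WIN1SRDX (limma adjusted p = 0.889). Between the lines the difference was -1.42 ± 0.33 (SE, limma adjusted p = 0.00594).

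WRKY46 and WRKY53 act with WRKY70 in basal defence, and WRKY53 also promotes leaf senescence. WRKY53 (AT4G23810) read 3.43, 0.88, 4.3 and 2.5 in MYB106SRDX and -0.7, 0.064, -0.61 and -0.72 in WIN1SRDX, against 1.38, 0.32, 0.73 and 0.9 in wild type. In MYB106SRDX 3 arrays were above all wild-type arrays and replicate 2 was inside their range, while all WIN1SRDX arrays were below wild type. WRKY53 rose by 1.95 ± 0.59 (SE) in MYB106SRDX (limma adjusted p = 0.0174), had -1.32 ± 0.59 (SE) in WIN1SRDX (limma adjusted p = 0.108), and was higher by 3.27 ± 0.59 (SE) in MYB106SRDX than in WIN1SRDX (limma adjusted p = 0.00139). Without MYB106SRDX replicate 2 the rise was 2.58 and the difference between the lines 3.9. WRKY53 passed as lower in WIN1SRDX than in wild type without that array, and with only the compared groups fitted.

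WRKY46 (AT2G46400) read 0.94, -1.01, -1.11 and 0.84 in MYB106SRDX and -0.69, -2.16, -2.01 and -2.09 in WIN1SRDX, against -1.64, -2.41, -1.72 and -2.2 in wild type. The MYB106SRDX arrays formed a higher and a lower pair, both above wild type. It rose by 1.91 ± 0.52 (SE) in MYB106SRDX (limma adjusted p = 0.0102) and differed by 0.25 ± 0.52 (SE) in WIN1SRDX (limma adjusted p = 0.735). WRKY38 and WRKY62, negative regulators of basal defence, gave signals near background in at least 1 group. WRKY38 (AT5G22570) read -6.91, -4.74, -9.06 and -7.79 in MYB106SRDX and -3.43, -4.28, -4.2 and -3.85 in WIN1SRDX, against -4.99, -5.27, -5.63 and -5.78 in wild type. Its spot was well above background on 1 of 4 MYB106SRDX arrays and on all arrays of the other groups, so the difference of -1.71 ± 0.71 (SE) from wild type rests partly on signals near background (limma adjusted p = 0.0635). The WIN1SRDX arrays lay above wild type without overlap, at 1.48 ± 0.71 (SE, limma adjusted p = 0.133). Between MYB106SRDX and WIN1SRDX the WRKY38 difference was -3.19 on the log2 scale (limma adjusted p = 0.00453). It was -0.97 with normexp background correction (adjusted p = 0.0195), -2.47 with signals held at the background floor, -3.98 without MYB106SRDX replicate 2 and -2.54 without replicate 3. WRKY62 (AT5G01900) read -9.11, -6.79, -7.4 and -7.79 in MYB106SRDX and -6.6, -5.96, -7.88 and -5.64 in WIN1SRDX, against -8.1, -7.66, -9.08 and -8.11 in wild type. It was well above background on 1 MYB106SRDX array, 3 WIN1SRDX arrays and no wild-type array, and was not tested.

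**Figure D3:**
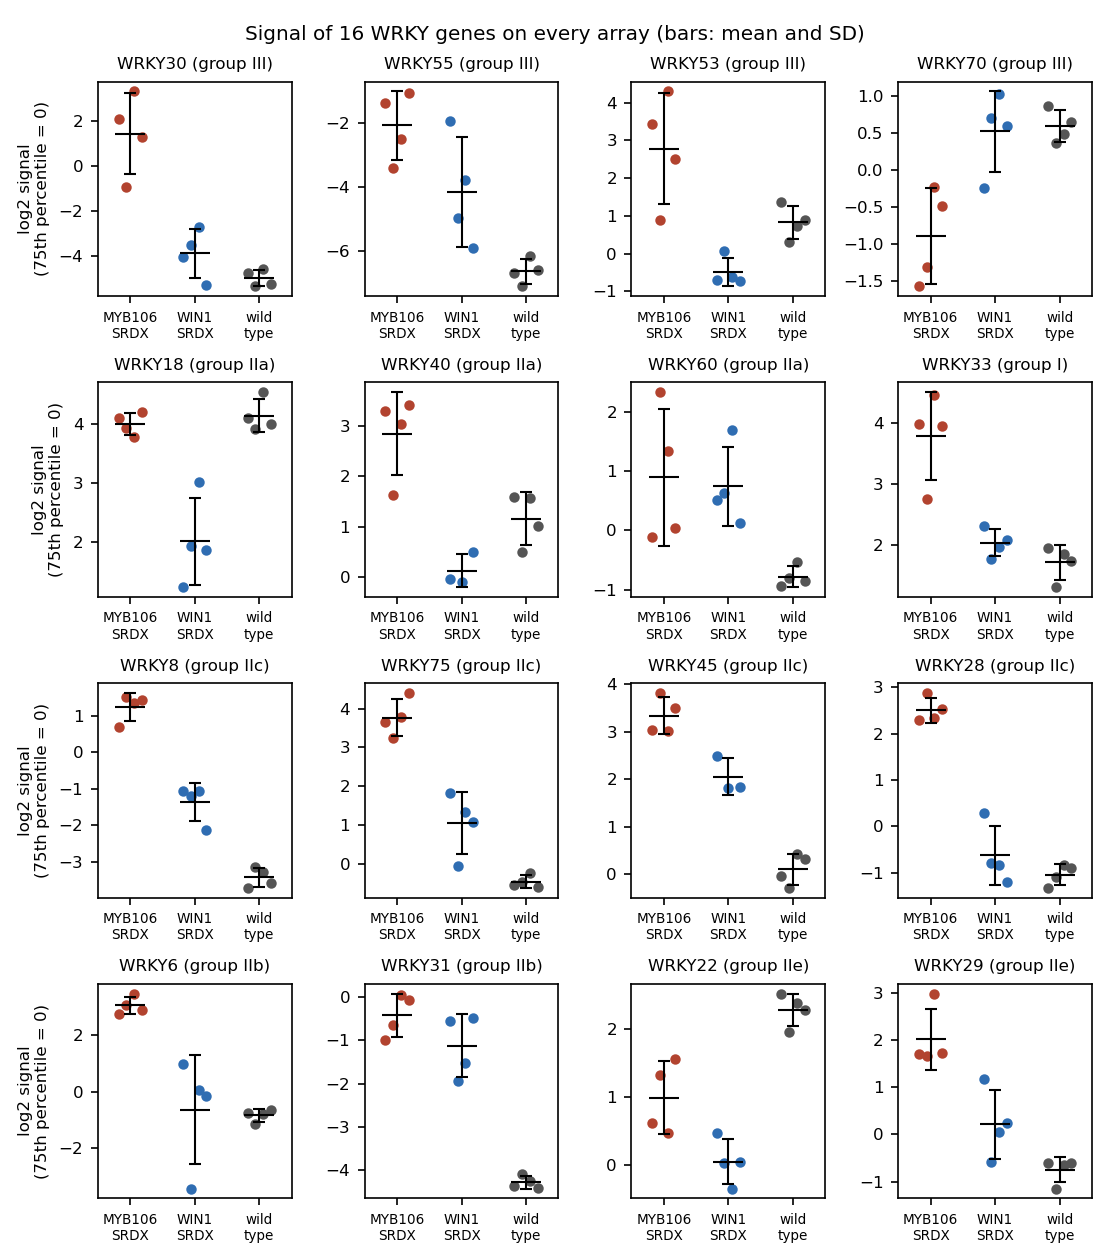
Log2 signal of 16 WRKY genes, with the 75th percentile of each array at 0, 1 point per array, with MYB106SRDX in red, WIN1SRDX in blue and wild type in grey. Horizontal bars are means and vertical bars SDs, and each panel has its own axis. WRKY30, WRKY8, WRKY75 and WRKY28 show all MYB106SRDX arrays above both other groups, while WRKY18 is low in WIN1SRDX alone and WRKY70 lower in MYB106SRDX than in wild type.

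Group IIa consists of WRKY18, WRKY40 and WRKY60, whose proteins bind each other and restrain basal defence and abscisic acid signalling. WRKY18 (AT4G31800) read 4.1, 3.93, 3.77 and 4.2 in MYB106SRDX and 1.23, 1.92, 3.01 and 1.86 in WIN1SRDX, against 4.1, 3.92, 4.54 and 4.0 in wild type. All WIN1SRDX arrays were below all arrays of both other groups, which overlapped each other. WRKY18 fell by 2.14 on the log2 scale in WIN1SRDX (SE 0.31, limma adjusted p = 0.000707) and had -0.14 ± 0.31 (SE) in MYB106SRDX (limma adjusted p = 0.728).

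WRKY40 (AT1G80840) read 3.3, 1.63, 3.04 and 3.42 in MYB106SRDX and -0.034, -0.094 and 0.5 on the 3 WIN1SRDX arrays with a value, against 1.58, 0.49, 1.56 and 1.01 in wild type. Each MYB106SRDX array was above wild type, the lowest by little, and WIN1SRDX reached from below wild type to its lower edge. WRKY40 rose by 1.69 ± 0.4 (SE) in MYB106SRDX (limma adjusted p = 0.006), had -1.04 ± 0.44 (SE) in WIN1SRDX (limma adjusted p = 0.095) and was higher by 2.72 ± 0.44 (SE) in MYB106SRDX than in WIN1SRDX (limma adjusted p = 0.000922). With the replicate number as a block WRKY40 passed as lower in WIN1SRDX than in wild type (-1.35, limma adjusted p = 0.00902). It also did with only the compared groups fitted and without MYB106SRDX replicate 2. WRKY60 (AT2G25000) read -0.1, 2.34, 1.34 and 0.034 in MYB106SRDX and 0.52, 0.63, 1.7 and 0.13 in WIN1SRDX, against -0.94, -0.79, -0.53 and -0.86 in wild type. Both lines were above wild type on every array and the WIN1SRDX range lay inside that of MYB106SRDX. It rose by 1.68 ± 0.51 (SE) in MYB106SRDX (limma adjusted p = 0.0169) and by 1.53 ± 0.51 (SE) in WIN1SRDX (limma adjusted p = 0.04). In WIN1SRDX its adjusted p was 0.051 with the slide as a block, and the call was lost without any 1 of WIN1SRDX replicates 1 to 3 or of the wild-type arrays, with adjusted p at most 0.106.

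Group I, with a pair of WRKY domains, had 6 rises and 1 fall among 9 members in MYB106SRDX and 1 rise and 2 falls in WIN1SRDX. Over all genes 23.6% rose and 28.6% fell in MYB106SRDX, while 17.4% and 15.2% did in WIN1SRDX, where the counts of group I are near those shares. WRKY33 (AT2G38470), which drives camalexin synthesis and resistance to necrotrophic fungi, read 3.97, 2.76, 4.45 and 3.94 in MYB106SRDX and 2.32, 1.78, 1.97 and 2.09 in WIN1SRDX, against 1.95, 1.32, 1.86 and 1.75 in wild type. All MYB106SRDX arrays were above the rest and WIN1SRDX overlapped wild type. WRKY33 rose by 2.06 ± 0.31 (SE) in MYB106SRDX (limma adjusted p = 0.000297) and differed by 0.32 ± 0.31 (SE) in WIN1SRDX (limma adjusted p = 0.447).

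WRKY25 and WRKY26 act with WRKY33 in heat tolerance. WRKY25 (AT2G30250) read 2.76, 2.83, 2.58 and 2.82 in MYB106SRDX and 1.97, 1.51, 1.48 and 1.45 in WIN1SRDX, against 1.98, 1.99, 2.15 and 2.0 in wild type. The 3 groups did not overlap, with MYB106SRDX highest and WIN1SRDX lowest, although WIN1SRDX replicate 1 came close to wild type. WRKY25 rose by 0.72 ± 0.13 (SE) in MYB106SRDX (limma adjusted p = 0.000868), fell by 0.42 in WIN1SRDX (SE 0.13, limma adjusted p = 0.0261), and differed by 1.14 ± 0.13 (SE) between the lines (limma adjusted p = 7.39e-05). The fall in WIN1SRDX was lost under 10 of 23 alternatives, among them the slide block (adjusted p = 0.0621) and the replicate block (adjusted p = 0.0525), and its highest adjusted p was 0.139. WRKY26 rose by 0.96 ± 0.23 (SE) in MYB106SRDX (limma adjusted p = 0.00502). In WIN1SRDX the rise of WRKY26 was 0.7 ± 0.23 (SE, limma adjusted p = 0.0386), the arrays overlapped wild type, and the call was lost under 9 of 23 alternatives, the slide block among them (adjusted p = 0.0525).

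WRKY3 and WRKY4 are known from resistance to necrotrophic fungi. WRKY4 (AT1G13960) read 0.22, 0.54, 0.43 and 0.089 in MYB106SRDX and 0.19, 0.14, 0.02 and -0.012 in WIN1SRDX, against 0.76, 0.92, 0.64 and 0.74 in wild type. Both lines were below wild type on every array. The fall was 0.44 in MYB106SRDX (SE 0.12, limma adjusted p = 0.0089) and 0.68 in WIN1SRDX (SE 0.12, limma adjusted p = 0.00176), and the lines differed by 0.24 ± 0.12 (SE, limma adjusted p = 0.126). WRKY3 did not pass in any comparison, with 0.029 in MYB106SRDX and -0.4 in WIN1SRDX. WRKY2, known from embryo and pollen development, rose by 1.02 ± 0.14 (SE) in MYB106SRDX (limma adjusted p = 0.000153) and had -0.091 in WIN1SRDX. WRKY1 and WRKY32 rose by 0.46 and 0.6 in MYB106SRDX, and WRKY20 passed nowhere. The WRKY1 call was lost on the authors' own value table (adjusted p = 0.0633).

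In group IIb 4 of 5 members rose in MYB106SRDX, with a median of 2.36, and 2 of 5 in WIN1SRDX, against 23.6% and 17.4% of all genes. WRKY6 (AT1G62300), which restrains the phosphate exporter gene PHO1 and takes part in senescence, read 2.77, 3.09, 3.49 and 2.9 in MYB106SRDX and 0.96, -3.45, 0.065 and -0.14 in WIN1SRDX, against -0.75, -1.17, -0.81 and -0.67 in wild type. The MYB106SRDX arrays were tight and far above the rest, whereas WIN1SRDX scattered on both sides of wild type. Its replicate 2 was the lowest array by a wide margin. WRKY6 rose by 3.91 ± 0.74 (SE) in MYB106SRDX (limma adjusted p = 0.00128) and differed by 0.21 ± 0.74 (SE) in WIN1SRDX (limma adjusted p = 0.849). Without WIN1SRDX replicate 2 it passed as higher in WIN1SRDX too.

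WRKY31 (AT4G22070) read -1.0, -0.65, 0.054 and -0.067 in MYB106SRDX and -0.56, -1.95, -1.52 and -0.48 in WIN1SRDX, against -4.35, -4.08, -4.24 and -4.42 in wild type. Both lines were above wild type by more than the range of any group and overlapped each other. The gene rose by 3.86 ± 0.34 (SE) in MYB106SRDX (limma adjusted p = 9.65e-06) and by 3.15 ± 0.34 (SE) in WIN1SRDX (limma adjusted p = 0.000142), and the lines differed by 0.71 ± 0.34 (SE, limma adjusted p = 0.115). It was the largest rise among the members in WIN1SRDX. With normexp the WRKY31 rises were 3.15 in MYB106SRDX and 2.51 in WIN1SRDX. WRKY47 rose by 2.36 ± 0.22 (SE) in MYB106SRDX and by 0.95 ± 0.22 (SE) in WIN1SRDX, with limma adjusted p of 1.22e-05 and 0.0071. WRKY72, known from basal immunity, rose by 1.9 ± 0.35 (SE) in MYB106SRDX (limma adjusted p = 0.00108) and had 0.85 in WIN1SRDX (limma adjusted p = 0.082). WRKY42, like WRKY6 a phosphate regulator, was above background on 3 of 4 MYB106SRDX arrays and passed in no comparison. With the slide as a block it passed as lower in MYB106SRDX than in WIN1SRDX (-1.04, limma adjusted p = 0.0497, against -0.69 without the block), with 0.42, -1.53 and -1.83 within the 3 slides.

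Group IIc is the largest subfamily here, and 8 of its 10 members rose in MYB106SRDX with a median of 2.25, while 4 rose and 1 fell in WIN1SRDX with a median of 1.23, against 23.6%, 17.4% and 15.2% of all genes. WRKY8 (AT5G46350) read 0.68, 1.51, 1.35 and 1.42 in MYB106SRDX and -1.07, -1.21, -1.06 and -2.12 in WIN1SRDX, against -3.71, -3.14, -3.28 and -3.58 in wild type. The 3 groups were fully apart, with WIN1SRDX in the middle. WRKY8 rose by 4.67 ± 0.27 (SE) in MYB106SRDX (limma adjusted p = 8.38e-07), by 2.06 ± 0.27 (SE) in WIN1SRDX (limma adjusted p = 0.000382), and was 2.61 ± 0.27 (SE) higher in MYB106SRDX than in WIN1SRDX (limma adjusted p = 4.19e-05).

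WRKY75 and WRKY45 are both known from phosphate supply and leaf senescence. WRKY75 (AT5G13080) read 3.64, 3.23, 3.8 and 4.41 in MYB106SRDX and 1.82, -0.063, 1.33 and 1.07 in WIN1SRDX, against -0.56, -0.46, -0.23 and -0.59 in wild type. All 3 groups were apart, again with WIN1SRDX between the others. WRKY75 rose by 4.23 ± 0.36 (SE) in MYB106SRDX (limma adjusted p = 8.03e-06) and by 1.5 ± 0.36 (SE) in WIN1SRDX (limma adjusted p = 0.00945). WRKY45 (AT3G01970) read 3.03, 3.82, 3.01 and 3.49 in MYB106SRDX and 2.5, 1.82 and 1.84 on the 3 WIN1SRDX arrays with a value, against -0.034, -0.28, 0.42 and 0.32 in wild type. The groups did not overlap. WRKY45 rose by 3.23 ± 0.24 (SE) in MYB106SRDX (limma adjusted p = 7.38e-06) and by 1.95 ± 0.26 (SE) in WIN1SRDX (limma adjusted p = 0.000676). With the marked spot of WIN1SRDX replicate 2 kept, the WIN1SRDX value was 1.25 with an adjusted p of 0.116, and the difference between the lines 1.98, against 1.28 without that spot. The WRKY45 call in WIN1SRDX was also lost on the authors' value table.

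WRKY28 (AT4G18170), an activator of the salicylic acid synthesis gene ICS1, read 2.28, 2.88, 2.33 and 2.52 in MYB106SRDX and 0.29, -0.78, -0.83 and -1.19 in WIN1SRDX, against -1.32, -1.1, -0.84 and -0.89 in wild type. MYB106SRDX was above all other arrays, and WIN1SRDX overlapped wild type. WRKY28 rose by 3.54 ± 0.28 (SE) in MYB106SRDX (limma adjusted p = 5.23e-06), had 0.41 ± 0.28 (SE) in WIN1SRDX (limma adjusted p = 0.28) and differed by 3.13 ± 0.28 (SE) between the lines (limma adjusted p = 1.78e-05). WRKY71 (AT1G29860), a regulator of shoot branching, read -5.18, -3.16, -4.18 and -4.32 in MYB106SRDX and -4.22, -4.38, -4.38 and -5.54 in WIN1SRDX, against -6.6, -6.9, -6.17 and -6.12 in wild type. Both lines were above wild type on every array and overlapped each other. Its rises were 2.24 ± 0.41 (SE) in MYB106SRDX (limma adjusted p = 0.00115) and 1.82 ± 0.41 (SE) in WIN1SRDX (limma adjusted p = 0.00725). With normexp they were 1.18 and 0.82 and still passed.

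The spot of WRKY50 (AT5G26170), a jasmonate and salicylic acid response gene, lay near background in all of wild type (0 of 4 arrays well above it), and WRKY50 was at least 3.16-fold higher in MYB106SRDX (limma adjusted p = 0.0114). That bound sets the MYB106SRDX mean against the higher, per wild-type array, of its own signal and the lowest signal well above background, both as processed signals. The fitted difference was 2.26, and with normexp background correction it was 0.97, below that bound (adjusted p = 0.00248). In WIN1SRDX 3 of 4 arrays were above background and the gene did not pass (limma adjusted p = 0.112). WRKY57, a drought tolerance gene, and WRKY48, a repressor of basal defence, rose by 2.23 ± 0.34 (SE) and 1.51 ± 0.24 (SE) in MYB106SRDX, and had 0.83 and -0.37 in WIN1SRDX without passing. WRKY51 passed in no comparison. WRKY23 (AT2G47260), an auxin-responsive gene of root development, read -0.69, -1.38, -0.47 and -0.61 in MYB106SRDX and -1.88, -1.69, -1.01 and -1.46 in WIN1SRDX, against -0.75, -0.95, -0.79 and -0.49 in wild type. WIN1SRDX was below wild type without overlap and MYB106SRDX covered the wild-type range. WRKY23 fell by 0.77 in WIN1SRDX (SE 0.23, limma adjusted p = 0.0257) and had -0.042 ± 0.23 (SE) in MYB106SRDX. That fall was lost without WIN1SRDX replicate 1 or 2, without wild-type replicate 1, 3 or 4 and on the authors' table, with adjusted p at most 0.11.

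Group IId proteins bind calmodulin. WRKY15 (AT2G23320), known from oxidative and osmotic stress, read 2.94, 3.09, 3.09 and 3.04 in MYB106SRDX and 1.79, 1.73, 1.45 and 1.84 in WIN1SRDX, against 2.7, 2.4, 2.44 and 2.64 in wild type. The groups did not overlap, with MYB106SRDX highest, wild type in the middle and WIN1SRDX lowest. WRKY15 rose by 0.5 ± 0.11 (SE) in MYB106SRDX (limma adjusted p = 0.00367) and fell by 0.84 in WIN1SRDX (SE 0.11, limma adjusted p = 0.000459). Between the lines WRKY15 differed by 1.34 ± 0.11 (SE), the lowest adjusted p among the members in that comparison (1.14e-05 in limma). Its calls held under all 23 alternatives.

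WRKY11 and WRKY17, which act together as negative regulators of basal resistance, rose by 1.03 ± 0.27 (SE) and 0.93 ± 0.26 (SE) in MYB106SRDX and had -0.17 and -0.17 in WIN1SRDX. WRKY21 (AT2G30590) read 2.06, 2.1, 2.13 and 2.05 in MYB106SRDX and 2.19, 2.53, 2.44 and 2.27 in WIN1SRDX, against 2.42, 2.58, 2.53 and 2.55 in wild type. MYB106SRDX was below both other groups on every array. WRKY21 fell by 0.43 in MYB106SRDX against wild type (SE 0.10, limma adjusted p = 0.00306) and by 0.27 against WIN1SRDX (SE 0.10, limma adjusted p = 0.0388). The second of these calls was lost under 11 of 23 alternatives, with adjusted p at most 0.113. WRKY39 (AT3G04670), a heat response gene, read 0.12, 1.1, 0.26 and 0.29 in MYB106SRDX and 0.13, 0.45, -0.48 and 0.73 in WIN1SRDX, against 0.88, 0.91, 1.06 and 1.0 in wild type. The WIN1SRDX arrays were all below wild type, the highest by little, while MYB106SRDX replicate 2 was above it. WRKY39 fell by 0.76 in WIN1SRDX (SE 0.27, limma adjusted p = 0.0493), a call lost under 14 of 23 alternatives with adjusted p at most 0.117. WRKY7 passed in no comparison.

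WRKY22 and WRKY29 of group IIe are known as outputs of the kinase cascade below the flagellin receptor FLS2, and in MYB106SRDX WRKY22 fell while WRKY29 rose. WRKY22 (AT4G01250) read 0.61, 1.32, 0.46 and 1.56 in MYB106SRDX and 0.47, 0.019, -0.35 and 0.043 in WIN1SRDX, against 2.53, 1.97, 2.38 and 2.29 in wild type. Both lines were below wild type on every array, and WIN1SRDX was the lower, with its replicate 1 touching the MYB106SRDX range. WRKY22 fell by 1.3 in MYB106SRDX (SE 0.26, limma adjusted p = 0.00185) and by 2.25 in WIN1SRDX (SE 0.26, limma adjusted p = 0.000217), and was 0.95 ± 0.26 (SE) higher in MYB106SRDX than in WIN1SRDX (limma adjusted p = 0.0137).

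WRKY29 (AT4G23550) read 1.7, 1.66, 2.98 and 1.72 in MYB106SRDX and 1.17, -0.59, 0.057 and 0.24 in WIN1SRDX, against -0.61, -1.15, -0.64 and -0.61 in wild type. MYB106SRDX was above both other groups, and the lowest WIN1SRDX array was just above wild type. WRKY29 rose by 2.76 ± 0.38 (SE) in MYB106SRDX (limma adjusted p = 0.000183) and had 0.97 ± 0.38 (SE) in WIN1SRDX (limma adjusted p = 0.0747). WRKY27 (AT5G52830), which influences bacterial wilt symptoms, read -2.63, -2.37, -2.1 and -2.66 in MYB106SRDX and -2.35, -3.5, -2.67 and -2.66 in WIN1SRDX, against -1.83, -1.56, -1.7 and -1.91 in wild type. Both lines were below wild type on every array and overlapped each other. WRKY27 fell by 0.69 in MYB106SRDX (SE 0.23, limma adjusted p = 0.0248) and by 1.04 in WIN1SRDX (SE 0.23, limma adjusted p = 0.00559). The MYB106SRDX call was lost under 6 of 23 alternatives, among them the slide block (adjusted p = 0.06), quantile normalization (-0.44) and leaving out MYB106SRDX replicate 1 or 4 or wild-type replicate 2 or 3, with adjusted p at most 0.122. WRKY65 and WRKY69 passed in no comparison.

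**Figure D4:**
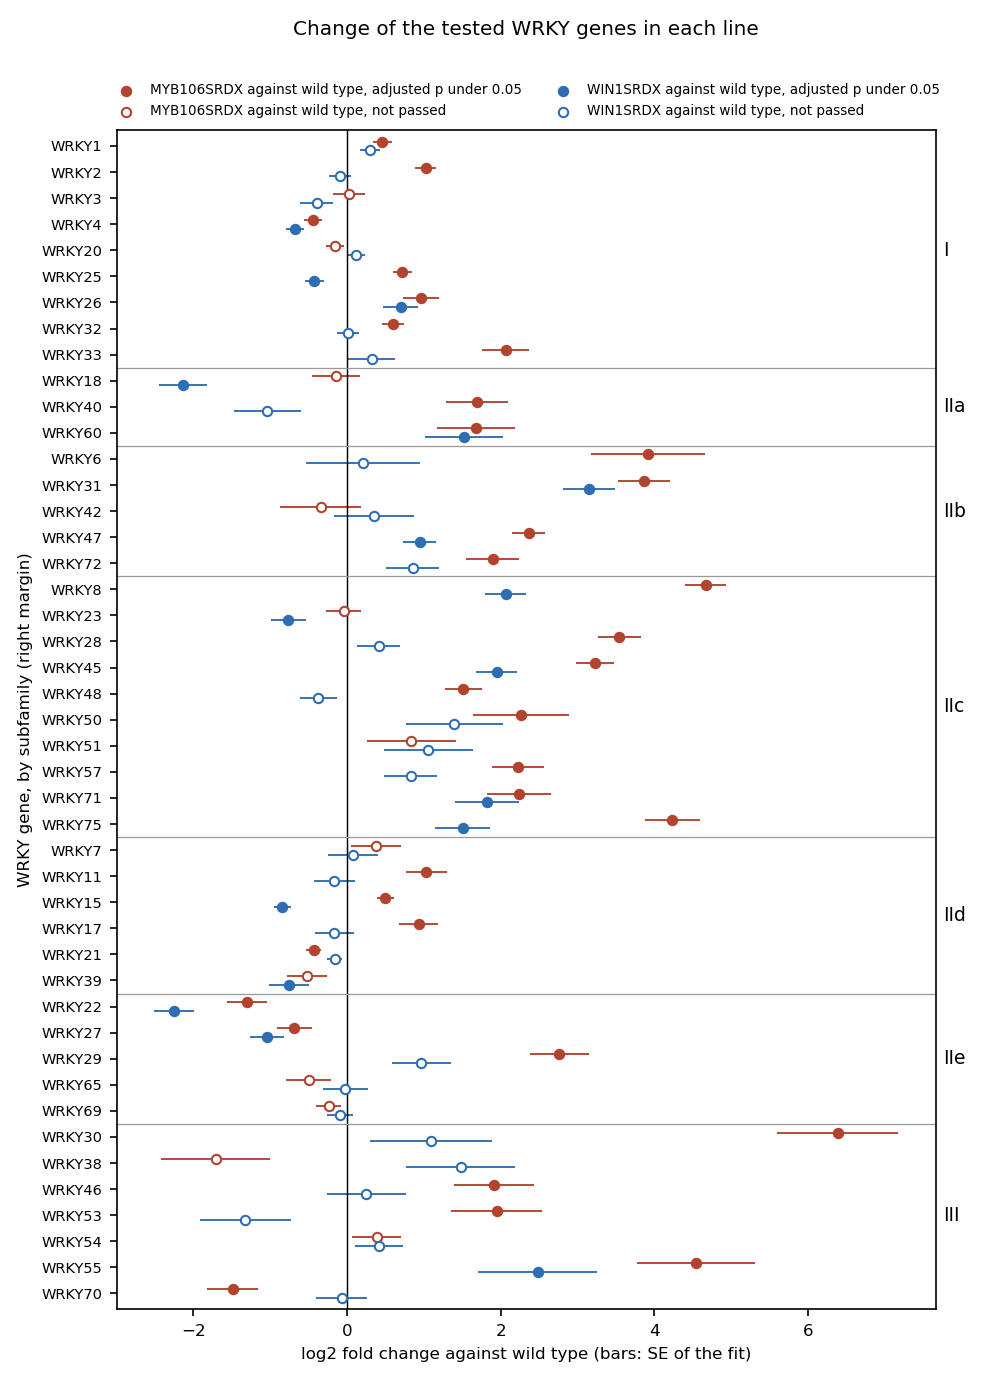
Log2 fold change against wild type of the 45 tested WRKY genes, by subfamily, in MYB106SRDX (red) and WIN1SRDX (blue), with bars for the SE of the fit. Filled points passed at an adjusted p below 0.05 and open points did not. Of the red points 28 are filled to the right of 0 and 5 to the left, and of the blue points 9 and 8, with WRKY15 and WRKY25 filled on opposite sides.

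Genes that act around the WRKY factors were described from 4 further lists. VQ-motif cofactors, which bind WRKY proteins, were mostly higher in MYB106SRDX, where 4 of 5 rose (23.6% of all genes did), and 0 of 5 passed in WIN1SRDX (limma). JAV1, a jasmonate repressor, rose by 1.88 ± 0.3 (SE, limma adjusted p = 0.000474), MKS1, the MPK4 substrate that binds WRKY33, by 1.23 ± 0.21 (SE, limma adjusted p = 0.000727), and SIB2, a WRKY33 partner, by 1.94 ± 0.39 (SE, limma adjusted p = 0.00202) in MYB106SRDX. SIB1, its relative, had 1.05 ± 0.41 (SE, limma adjusted p = 0.0501). In WIN1SRDX the same genes had 0.14, -0.093, 0.69 and -0.65, and MKS1 was above background on 2 of 4 of its arrays.

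Of 12 tested kinases that act above WRKY factors, 2 rose in MYB106SRDX, namely MKK4 by 1.02 ± 0.14 (SE, limma adjusted p = 0.000175) and MKK5 by 0.92 ± 0.14 (SE, limma adjusted p = 0.000383), the kinases just above MPK3 and MPK6. That share is below the 23.6% of all genes that rose. In WIN1SRDX MKK5 rose by 0.56 ± 0.14 (SE, limma adjusted p = 0.0123) and 4 kinases fell, among them MEKK1 by 0.69 (limma adjusted p = 0.00166), CPK4 by 0.41 (limma adjusted p = 0.025) and CPK6 by 0.4 (limma adjusted p = 0.0359), where 17.4% of all genes rose and 15.2% fell. The median of the list was 0.16 in MYB106SRDX and -0.15 in WIN1SRDX.

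Of 5 pattern receptors and partners, 3 rose in MYB106SRDX and 2 fell in WIN1SRDX, against 23.6% and 15.2% of all genes. EFR, the receptor of bacterial elongation factor Tu, rose by 1.73 ± 0.16 (SE, limma adjusted p = 1.43e-05), BIK1, a receptor-associated kinase, by 1.4 ± 0.16 (SE, limma adjusted p = 4.34e-05) and CERK1, a chitin receptor kinase, by 0.52 ± 0.14 (SE, limma adjusted p = 0.00903) in MYB106SRDX. FLS2 fell by 1.71 (limma adjusted p = 3.63e-05) and its coreceptor BAK1 by 0.6 (limma adjusted p = 0.0025) in WIN1SRDX. All 5 were higher in MYB106SRDX than in WIN1SRDX, by 0.77 to 1.95, where 18.3% of all genes were.

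Of 17 tested genes of 19 reported as WRKY targets, 10 rose and 2 fell in MYB106SRDX and 6 rose and 3 fell in WIN1SRDX. Of all genes 23.6% rose and 28.6% fell in MYB106SRDX, and 17.4% and 15.2% in WIN1SRDX, so that the falls in WIN1SRDX are near the share of all genes. CYP71A12, a camalexin pathway enzyme, rose by 10.16 ± 0.39 (SE, limma adjusted p = 1.4e-07) in MYB106SRDX and 8.19 ± 0.39 (SE, limma adjusted p = 1.04e-06) in WIN1SRDX, with 3 of 4 wild-type arrays above background. FRK1, a marker kinase of early pattern responses downstream of WRKY22 and WRKY29, rose by 4.9 ± 0.24 (SE, limma adjusted p = 3.87e-07) in MYB106SRDX and 3.73 ± 0.24 (SE, limma adjusted p = 1.14e-05) in WIN1SRDX, the line in which WRKY22 read lowest. PBS3, a salicylic acid synthesis enzyme, rose by 2.55 ± 0.23 (SE, limma adjusted p = 1.28e-05) in MYB106SRDX and 1.98 ± 0.23 (SE, limma adjusted p = 0.000242) in WIN1SRDX. ICS1, the reported target of WRKY28, did not pass in either line. It had 0.4 ± 0.32 (SE, limma adjusted p = 0.321) in MYB106SRDX and 0.88 ± 0.32 (SE, limma adjusted p = 0.0573) in WIN1SRDX.

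PHO1, repressed by WRKY6 and WRKY42, read -2.23, -2.96, -3.01 and -3.34 in MYB106SRDX, against 0.4, 0.29, 0.37 and 0.35 in wild type, without overlap. It fell by 3.24 in MYB106SRDX (limma adjusted p = 4.84e-06) and had -0.58 ± 0.25 (SE) in WIN1SRDX (limma adjusted p = 0.101). PHO1 acts in roots, and most root markers fell in the same seedlings. Whether these falls are linked was not tested. ORA59, a jasmonate and ethylene response factor, fell by 1.68 in MYB106SRDX (limma adjusted p = 0.000894). RD29A, ABI5 and NPR1 fell in WIN1SRDX by 3.04, 1.13 and 0.49. ABI5, an abscisic acid response factor reported as a WRKY40 target, rose by 2.21 ± 0.33 (SE, limma adjusted p = 0.000302) in MYB106SRDX. ABI4 and SAG12 were not tested for want of signal.

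Other transcripts moved with the WRKY genes, and their part in these differences was not tested. Of 13 root markers 10 fell and 0 rose in MYB106SRDX (limma, median -4.66), and 7 rose and 2 fell in WIN1SRDX (median 1.04). Over all genes 28.6% fell and 23.6% rose in MYB106SRDX, and 17.4% rose and 15.2% fell in WIN1SRDX. The root falls in WIN1SRDX are near that share, but the root list was mixed in that line, with 9 positive and 4 negative changes. The negative ones were the endodermis genes CASP1 (-1.59), CASP2 (-1.02), ESB1 (-1.07) and PER64 (-0.79), of which CASP2 and ESB1 passed. Among the rises in WIN1SRDX were the root hair genes COBL9 (1.58), EXPA7 (2.64) and EXPA18 (2.3). The median level of the 12 root markers with a value on every array was -8.17 to -6.55 in MYB106SRDX and -1.78 to 0.013 in WIN1SRDX, against -2.05 to -1.51 in wild type. Only 4 of the 13 root markers were well above background on all 4 MYB106SRDX arrays. The median level and the median change in that line thus rest partly on signals near background. Their summed level, in units of the 75th percentile signal, was 13 to 37.3 in MYB106SRDX and 35.6 to 62.4 in WIN1SRDX, against 32.1 to 35.6 in wild type. That sum is led by the bright PYK10 probe, which did not pass in MYB106SRDX (-0.27 ± 0.3, SE, limma adjusted p = 0.482), and it leaves out NAI2, whose spot on MYB106SRDX replicate 4 was marked. Of the root hair genes, COBL9, EXPA18 and RSL4 were above background on 0 of 4 MYB106SRDX arrays, PRP3 and RHD6 on 1, and EXPA7 and LRX1 on 2. LRX1 did not pass in MYB106SRDX (-0.16 ± 0.35, SE, limma adjusted p = 0.73). In these whole seedlings fewer cells of a type and less RNA per cell cannot be told apart. Of the leaf mesophyll markers 1 of 7 fell in MYB106SRDX (LHCB2.2, by 4.34) and 0 of 7 passed in WIN1SRDX (limma). Among all genes 28.6% fell in MYB106SRDX and 32.6% passed in WIN1SRDX. The summed level of the mesophyll markers was 486 to 589 in MYB106SRDX and 443 to 606 in WIN1SRDX, against 489 to 561 in wild type.

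Senescence genes rose in 5 of 6 tested cases in MYB106SRDX and 2 of 6 in WIN1SRDX, against 23.6% and 17.4% of all genes. SAG12, also of this list, was above background on 1 of 4 arrays in each group and was not tested. SAG13 rose by 7.93 in MYB106SRDX and 5.74 in WIN1SRDX, and NAP by 2.03 in MYB106SRDX and 0.73 in WIN1SRDX, while ORE1 rose by 2.31 in MYB106SRDX and had 0.47 in WIN1SRDX. The summed level of the list was 105 to 125 in MYB106SRDX and 53.6 to 88.2 in WIN1SRDX, against 56.4 to 64.6 in wild type. Many WRKY genes respond within minutes to touch and wounding, and 9 early response genes were read for that reason. In MYB106SRDX 3 rose (ZAT10 by 1.5, ZAT12 by 2.92, SZF2 by 1.71) and XTH22 fell by 2.65. In WIN1SRDX 0 rose and 5 fell (limma). Over all genes 23.6% rose and 28.6% fell in MYB106SRDX, and 17.4% rose and 15.2% fell in WIN1SRDX. The rises in MYB106SRDX are thus near the share of all genes. The median change of the 9 genes was -0.015 in MYB106SRDX and -0.74 in WIN1SRDX. Their summed level was 90.5 to 135 in MYB106SRDX and 50.8 to 76.7 in WIN1SRDX, against 124 to 151 in wild type.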

How the data were processed

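RNA of 12 samples was labelled with Cy3 and hybridised to 1-colour Agilent 44K arrays, 4 to a slide. The software for spot reading was Agilent Feature Extraction 9.1.3.1, per the submitters' processing notes. The deposited scanner files hold a background-corrected intensity per spot (the processed signal) with flags, per the file headers. In the authors' value table each value is a ratio, the processed intensity divided by a constant of 1083 for MYB106SRDX, 996 for WIN1SRDX and 1264 for wild type (100% of probes within 1%). That table is linear and uncentred, and the sources used here do not say why its constants differ. Its column medians were 0.0698, 0.0598, 0.0652 and 0.0758 in MYB106SRDX, 0.0977, 0.0867, 0.137 and 0.11 in WIN1SRDX, and 0.0996, 0.0966, 0.0993 and 0.109 in wild type. It served as an alternative.

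Here the log2 processed signal minus the 75th percentile of the array was used, without 1417 control spots and without outlier-marked spots. The probe with the highest mean stood for a locus, and a gene was tested where at least 1 group had it well above background on all 4 arrays (20267 of 25665 loci). Values were identical in 0 pairs of arrays. The model was fitted in R 4.3.3 by lmFit and eBayes of limma 3.58.1 to the 3 groups together, with 9 residual degrees of freedom, and p was adjusted by Benjamini-Hochberg over the tested genes. The fit was also run on simulated data, with the same spread in every group and few changed genes. The real groups differ in spread, so that run checks the code alone. The number of arrays limits the precision.

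Array values are given for the 6 largest rises and falls in each line that passed, lay above background on all arrays and did not overlap, for the 4 lowest adjusted p between the lines, and for WRKY18, WRKY40, WRKY60, WRKY33 and group III. Those of WRKY29 and PHO1 were added after their values were seen. Of each other list, at most 3 genes that passed were named in each direction by lowest p. Exceptions named after their values were seen are SIB1, RSL4, PYK10, ICS1, CASP1, PER64, LRX1, PRP3, RHD6 and the MYB106SRDX values of ABI5 and EXPA7. The members and lists were chosen with earlier results of these data known, and roles and target relations are background knowledge. RefSeq names matched 25449 loci. Alternatives were background correction, normalization, the filter, marked spots, the groups fitted, slide and replicate blocks, and leaving out arrays.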

Additional observations from a re-analysis of the deposited data

Results flagged for a closer look

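Over 129 sets of 4 array values of a WRKY gene in a group, 14 (10.9%) had an array whose gap to its nearest neighbour, as a share of the whole range, was above the critical value of Dixon's test. Chance gives about 1 in 20. Values are log2 signals with the 75th percentile of each array set to 0.

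In MYB106SRDX, replicate 3 read 2.98 for WRKY29, with the next array at 1.72, and -3.36 for WRKY54, with the next at -4.57. WIN1SRDX replicate 2 read -0.25 for WRKY2 (next -0.032), -5.05 for WRKY42 (next -6.61), 0.064 for WRKY53 (next -0.61) and 1.07 for WRKY65 (next 2.3). Replicate 1 of that line read 1.97 for WRKY25 (next 1.51) and -0.69 for WRKY46 (next -2.01), and replicate 4 read -2.12 for WRKY8 (next -1.21) and -5.54 for WRKY71 (next -4.38). In wild type, replicate 2 read 1.56 for WRKY11 (next 1.9) and -1.15 for WRKY29 (next -0.64), and replicate 3 read 2.15 for WRKY25 (next 2.0) and 0.048 for WRKY32 (next 0.23).

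The WRKY53 spot of WIN1SRDX replicate 2 was the highest of its group and still below all wild-type arrays. The WRKY8 and WRKY71 spots of replicate 4 were the lowest of theirs and still above all wild-type arrays.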

How the results depend on the processing

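Across 23 alternatives at the same threshold, 30 of 33 member calls in MYB106SRDX against wild type, 10 of 17 in WIN1SRDX against wild type and 21 of 27 between the lines were kept in every one, and no call changed direction. WRKY50 in the first and WRKY38 in the last comparison were kept in 22 and not tested among genes above background on all 12 arrays. Of the members that passed in no comparison here, WRKY3, WRKY20, WRKY42, WRKY51, WRKY54, WRKY65 and WRKY69 passed in one under at least 1 of the alternatives. WRKY62, not tested here, passed as higher in WIN1SRDX than in wild type without the filter on dim probes. Against wild type in WIN1SRDX, WRKY6, WRKY29, WRKY38, WRKY40, WRKY50, WRKY53, WRKY57 and WRKY72 also passed only under some alternatives. Rises in MYB106SRDX stayed at 27 to 29 members under these. Asking for a 2-fold change as well left 2 falls in MYB106SRDX and 3 falls in WIN1SRDX, by construction. On the authors' value table WIN1SRDX had 5 falls; there the median of all genes was 0.12 in WIN1SRDX against wild type (0.00140 here) and -0.20 between the lines (-0.03 here), and falls made up 2004 of its called genes beside 3982 rises, against 3078 and 3528. Leaving out 1 array gave 28 to 28 rises and 4 to 8 falls in MYB106SRDX (8 without MYB106SRDX replicate 2), 6 to 12 rises and 5 to 10 falls in WIN1SRDX (5 without WIN1SRDX replicate 2 or wild-type replicate 1, 3 or 4), and 21 to 25 higher and 2 to 4 lower members between the lines. Without both WIN1SRDX replicate 2 and MYB106SRDX replicate 2, an alternative chosen after seeing the data, there were 28 rises and 9 falls in MYB106SRDX, 15 rises and 9 falls in WIN1SRDX, and 22 higher and 4 lower between the lines.

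Samples of different groups share replicate numbers, but of 12 pairs of groups and numbers 1 correlated above 0.1 (range -0.164 to 0.195), so the numbers were not taken as pairs. With the replicate number as a block 28 members rose and 5 fell in MYB106SRDX, 10 rose and 7 fell in WIN1SRDX, and 25 were higher and 3 lower between the lines. The median of the members in WIN1SRDX was 0.093 with normexp, against 0.21 here, 0.33 on the authors' table and 0.10 over genes above background on all arrays. The cause of these differences was not tested.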
